A study of Mus musculus with 9 samples.

Results

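The genes described here are the mouse genes named Zfp followed by a number, which code for zinc finger proteins, read in RAW-Blue macrophages with and without lipopolysaccharide. They were chosen by name and by measured counts: protein-coding genes with a symbol made of Zfp and digits, without Zfp36, whose expected counts summed to at least 60 over 6 libraries. Of 367 such protein-coding symbols, 366 remained without Zfp36 and 282 reached that sum, out of 50600 genes in all. The sum that chose them is given as a description only, and it took both groups together. RAW-Blue is a mouse macrophage line with an integrated reporter for inflammatory signalling, and all cells grew in the same medium with the antibiotics Normocin and Zeocin. LPS cells had bacterial lipopolysaccharide, the cell wall component sensed through Tlr4, at 1 µg/ml for 24 hours (n = 3). Cells of the group None had no such stimulus (n = 3). Another group of 3 samples, LPS-PjELNs, had plant nanoparticles for 16 hours before LPS and is not analysed here. No label says whether the replicates were separate cultures, so p-values measure the spread between these libraries, which may be technical.

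A classical zinc finger is a short loop that holds a zinc ion between a pair of cysteines and a pair of histidines and reads a few bases of DNA. Fingers come in tandem, joined by a short conserved linker. Many such proteins also carry a KRAB domain, which recruits the scaffold Trim28 and through it the histone methyltransferase Setdb1, heterochromatin protein 1 and DNA methylation. KRAB zinc finger genes multiplied in mammals by local duplication, sit in clusters, and are best known for silencing transposable elements in embryonic cells. The numbered Zfp symbols also cover proteins that activate promoters, handle RNA or assemble ribosomes.

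The tandem design is visible in the coding sequence of Zfp709, the gene with the largest decrease among those described below. It lies on chromosome 8 (GRCm38, chr8:71882019-71895727, plus strand), and its longest translated transcript has 727 residues and 19 fingers. Shown to make the repeat unit visible, 3 consecutive fingers from it run 84 bases each, from coding positions 763 to 1014. The capitals mark the linker, whose 5 residues are threonine, glycine, glutamate, lysine and proline.
finger 1: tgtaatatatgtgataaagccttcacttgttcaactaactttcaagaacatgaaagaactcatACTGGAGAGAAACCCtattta
finger 2: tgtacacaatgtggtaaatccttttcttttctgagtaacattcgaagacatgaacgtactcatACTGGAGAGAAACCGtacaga
finger 3: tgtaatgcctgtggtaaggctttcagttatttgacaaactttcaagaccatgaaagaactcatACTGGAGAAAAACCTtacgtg
Each repeat opens with the codons of its first cysteine and keeps the linker, while fingers 1 and 2 share 61 of 84 bases, fingers 1 and 3 share 67, and fingers 2 and 3 share 57. Among all 282 genes, 277 had at least 1 match to the finger pattern, with a median of 11 and a maximum of 37, in Zfp142. The 5 without a match were Zfp839, Zfp330, Zfp503, Zfp935 and Zfp703, named because they stand apart from the rest. The pattern has set spacings and was read in the longest coding transcript only, so fingers of another form or transcript would be missed.

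Most of these genes were expressed at low levels. Their summed counts ran from 61.68 to 29918 with a median of 962.5, and their mean level per transcript length ran from 0.18 to 84.9 TPM (transcript abundance scaled to a fixed library total) with a median of 4.17. Of the 282, 32 averaged under 1 TPM and 55 over 10 TPM, and none had 0 counts in any library. The 6 libraries held 14650825 to 17665201 counts. All 8 macrophage markers examined were present in both groups. Of 8 defining markers of other cell types, 6 were at 0 in LPS and 5 were at 0 in None, and their summed level was 0.363 to 0.433 CPM (counts scaled to a fixed total, on TMM-scaled library sizes) in LPS libraries and 0 to 0.109 CPM in None libraries. Their part in the results was not tested. The stimulus itself was visible in Tnf, Il1b, Nos2, Cxcl10 and Ptgs2, inflammatory genes that all passed the test as higher and summed to 7007 to 12128 CPM in LPS libraries and 83.9 to 115 CPM in None libraries.

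In LPS cells 153 of the 282 genes fell (54.3%), 41 rose (14.5%) and 88 did not pass the test, an adjusted p under 0.05 in the quasi-likelihood test of edgeR, with p-values adjusted by Benjamini and Hochberg's method over all 11916 genes tested. Over all genes tested, 69.1% passed, with 35.1% lower and 34% higher. Over the other 10437 protein-coding genes it was 35% lower and 35.8% higher. The median log2 fold change of LPS over None was -0.34 for the zinc finger genes and -0.03 for all genes tested. In bulk RNA, fewer cells that express a gene and less RNA of it per cell cannot be told apart. Of the zinc finger genes 64 fell and 10 rose by at least 2-fold, where over all genes tested 11.8% fell and 11.1% rose by that much. Groups that did not overlap were found with LPS lower for 159 of the 282 genes and with LPS higher for 48, against 38% and 35.7% of all genes tested. Scaled by library totals in place of TMM (trimmed mean of M-values, which sets the bulk of genes level), 191 fell (67.7%) and 21 rose (7.4%). Under that scaling other protein-coding genes of equal summed count were lower in 53.5% and higher in 21.3%, and the median of all genes tested was -0.29.

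Because zinc finger genes have few reads, they were set beside all other protein-coding genes of equal summed count, in 10 bins bounded by the deciles of the zinc finger genes' own sums and weighted equally. In those bins 39.6% of the other genes were called lower and 30.0% higher. The mean of their 10 bin medians of log2 fold change was -0.17, and each median of equal-count genes given below is such a mean. The median of all zinc finger genes together, -0.34, is not a mean over bins. It was lower by 0.18, and by 0.11 on log2(TPM + 1), so these gaps compare unlike summaries. Bin by bin, the zinc finger median was lower in each bin but the ninth. It was -0.83 against -0.26 in the lowest bin and 0.03 against -0.03 in the ninth. In the 7 lower bins, up to a sum of 1670.8, the share called lower was 53.6% to 67.9% of zinc finger genes and 35.3% to 46.9% of the others. In the 3 upper bins it was 42.9%, 35.7% and 41.4% of zinc finger genes and 37.5%, 36.9% and 31.0% of the others, so the ninth bin showed no gap. Their share called higher was below that of the other genes in each of the 10 bins.

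**Figure D1:**
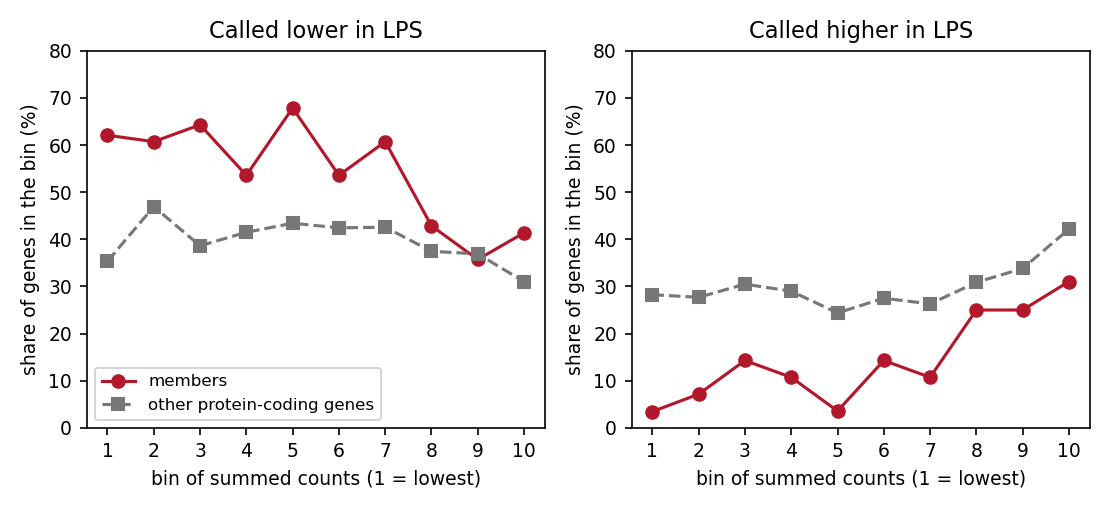
Share of genes (percent, vertical axes) called lower (left) and called higher (right) in LPS, by bin of summed counts (bin 1 lowest), for the 282 numbered zinc finger genes (circles) and the other protein-coding genes of the same bins (squares). The share called lower is 62.1% against 35.3% in bin 1 and 35.7% against 36.9% in bin 9, and the share called higher is lower for the zinc finger genes in each bin.

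As sums over each library, the 282 genes held 0.418%, 0.439% and 0.407% of all counts in the LPS libraries, against 0.562%, 0.571% and 0.558% in the None libraries. Every LPS library was below every None library. Summed TPM was 1811, 1839 and 1743 in LPS and 2262, 2291 and 2167 in None, again without overlap. Both measures have a fixed total per library, so they move with the share that other genes take. On TMM-scaled library sizes the gap was smaller, with sums of 4652, 4672 and 4506 CPM in LPS and 5197, 5179 and 5100 CPM in None.

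The genes were divided by whether their protein held a short run of letters typical of the KRAB domain. That pattern misses divergent domains such as that of Zfp263, and may also miss them in genes such as Zfp420 and Zfp213. Of 160 genes with these KRAB letters 98 fell (61.3%), 12 rose and 50 did not pass the test, with a median log2 fold change of -0.54, and 50 fell by at least 2-fold. Other protein-coding genes in the count bins of these 160 were called lower in 41.0% and higher in 28.5%. Of the 122 genes without the KRAB letters 55 fell (45.1%), 29 rose and 38 did not pass, with a median of -0.17, and 14 fell by at least 2-fold. Their equal-count genes were called lower in 38.2% and higher in 31.8%. The KRAB genes had lower levels, with a median of 3.06 TPM against 7.76 TPM for the rest. The summed TPM of the KRAB genes was 575, 584 and 514 in LPS and 756, 784 and 720 in None. On TMM-scaled library sizes their sums were 1328, 1339 and 1190 CPM in LPS and 1600, 1601 and 1568 CPM in None.

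Zinc finger genes that carry other names were counted in the same way. Of 47 further protein-coding genes with at least 3 fingers and the KRAB letters, such as Rbak (log2 fold change -1.01) and Zik1 (-0.85), 33 fell and 1 rose, with a median log2 fold change of -1.01. Of 133 with at least 3 fingers and no KRAB letters 55 fell and 30 rose, with a median of -0.18. The Zbtb genes, whose proteins pair fingers with a BTB domain, gave 14 lower and 10 higher of 36, with a median of -0.15. No test was made of these lists. Of all genes tested 35.1% were lower and 34% higher. Equal-count genes of the 47 were lower in 40.8% and higher in 28.1%. For the 133 genes these shares were 37.5% and 32.7%, and for the Zbtb genes 38.5% and 31.3%. Near-identical copies are given below for the numbered genes only, and how far shared reads bear on the 47 was not tested. Among the 47, Gm15446 matches the numbered gene Zfp932 at 96.9% over 1371 bases.

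**Figure D2:**
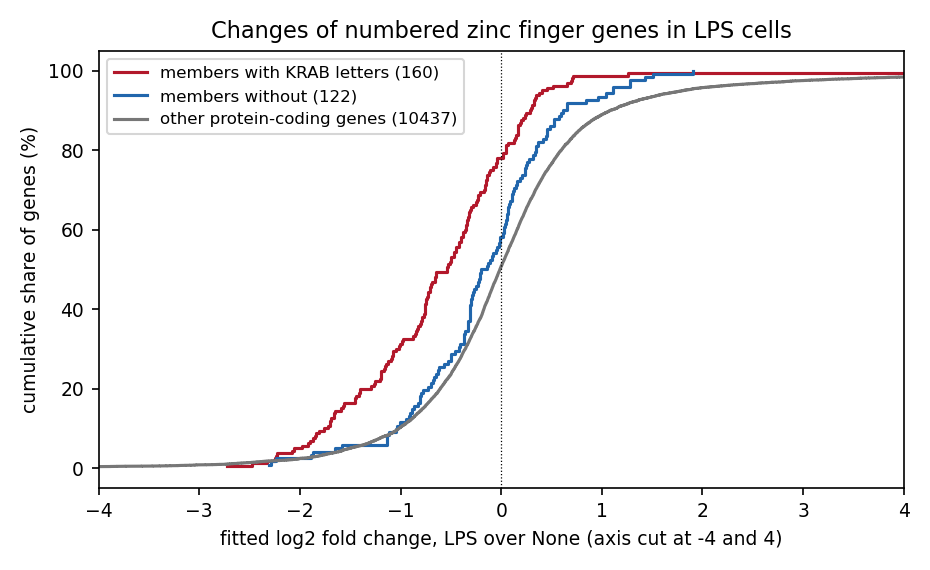
Cumulative share of genes (percent, vertical axis) by fitted log2 fold change of LPS over None (horizontal axis, cut at both ends) for 160 zinc finger genes with KRAB letters, 122 without, and 10437 other protein-coding genes. The KRAB curve lies left of the others through most of the range, with a median of -0.54 against -0.17 and -0.01.

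By number of fingers the counts ran as follows, to be read against 35.1% lower and 34% higher of all genes tested. Of 27 genes with 1 to 3 fingers 10 fell and 6 rose, with a median log2 fold change of 0.05, and the 37.0% that fell was near the 36.9% of equal-count genes. Of 46 with 4 to 7 fingers 29 fell and 9 rose (median -0.50), of 80 with 8 to 11 fingers 43 fell and 8 rose (-0.36), of 69 with 12 to 15 fingers 33 fell and 10 rose (-0.31), and of 55 with 16 or more 36 fell and 5 rose (-0.45). The 5 without a match to the pattern gave 3 higher and 2 lower. Protein length differed little, with a median of 583 residues for the genes that fell, 606 for those that rose and 570 for those that did not pass the test.

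Among the largest decreases was Zfp709, a KRAB gene with 1.21, 1.597 and 0.649 CPM in LPS, against 8.85, 6.88 and 7.24 CPM in None. The LPS libraries were all far below the None libraries, and the log2 fold change was -2.72 ± 0.25 (SE), with an adjusted p of 8.93e-07. Zfp40, a KRAB gene with 16 fingers, had 1.85, 2.18 and 1.23 CPM in LPS and 7.65, 8.84 and 8.38 CPM in None, a log2 fold change of -2.24 ± 0.20 (adjusted p 6.77e-07). Its groups did not overlap either. Zfp296, a gene of pluripotent cells whose protein has no KRAB letters, was the most abundant of the 12 largest decreases. It had 3.69, 4.86 and 3.82 CPM in LPS and 17.3, 20.5 and 20.5 CPM in None, which gave a log2 fold change of -2.23 ± 0.14 (adjusted p 3.17e-08). The fold was 4.71, and the highest LPS library stood far under the lowest None library.

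The other 9 of the 12 largest decreases were Zfp455, Zfp213, Zfp784, Zfp951, Zfp882, Zfp995, Zfp943, Zfp994 and Zfp873, with log2 fold changes from -2.33 in Zfp455 to -1.90 in Zfp873. All of them but Zfp213 and Zfp784 carried the KRAB letters. In all of these the LPS and None libraries did not overlap, which the naming rule required. Their levels in None were low, between 1.72 CPM in Zfp882 and 6.63 CPM in Zfp943. Zfp882 adjoins Zfp709 on chromosome 8 and had 0.639, 0.218 and 0.216 CPM in LPS and 1.85, 2.17 and 1.14 CPM in None. Zfp784 had 1.49, 1.02 and 0.794 CPM in LPS and 7.43, 4.60 and 4.24 CPM in None, and it overlaps Ccdc106 and Zfp865, from which its reads may not be fully separated. Zfp943 likewise overlaps the gene Gm7809.

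**Figure D3:**
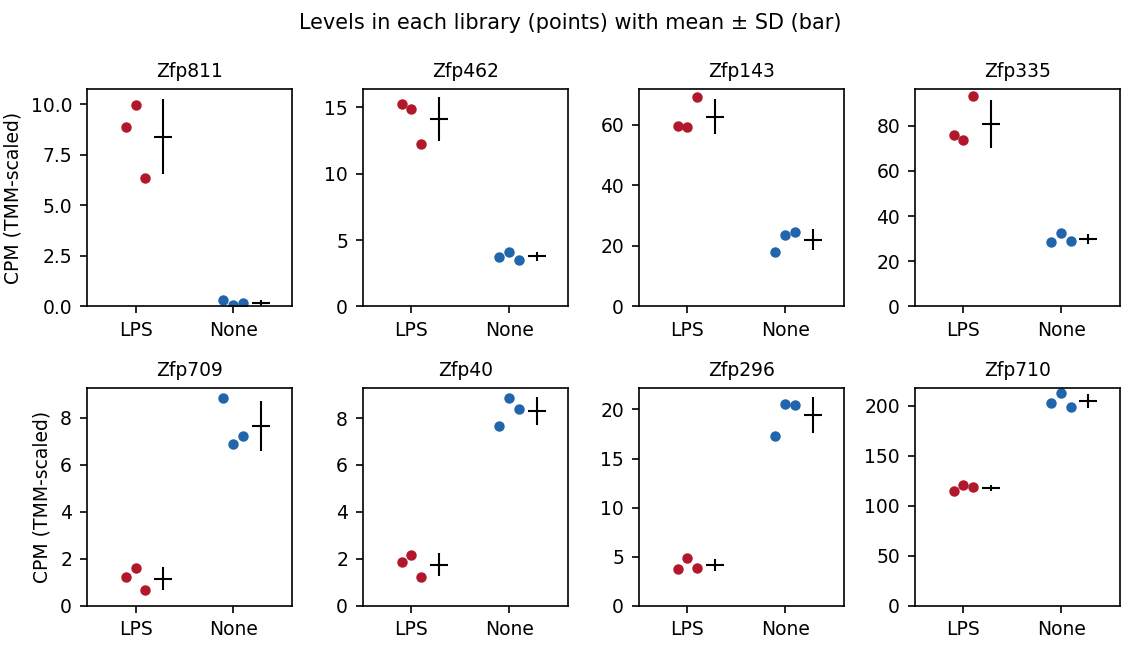
Level in CPM of TMM-scaled libraries (vertical axes, linear, from 0) of 8 zinc finger genes in each LPS library (left in each panel) and each None library (right), with the mean and SD over 3 libraries beside the points. Zfp811, Zfp462, Zfp143 and Zfp335 are higher in all 3 LPS libraries, and Zfp709, Zfp40, Zfp296 and Zfp710 are lower in all 3.

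The largest increase by far was that of Zfp811, a KRAB gene with 14 fingers on chromosome 17 (chr17:32795676-32809931, minus strand). It had 8.88, 9.95 and 6.35 CPM in LPS, against 0.326, 0.0517 and 0.155 CPM in None. The gene was close to silent in unstimulated cells, with at most 0.13 TPM in a None library and at least 2.02 TPM in every LPS library. The fitted log2 fold change was 5.52 ± 0.36, a 45.9-fold difference (adjusted p 4.14e-08), whose size rests on very few None counts. Its neighbours on both sides, Zfp871 and Zfp799, also zinc finger genes on the minus strand, had log2 fold changes of 0.17 (adjusted p 0.158) and -0.14 (adjusted p 0.321). Neither passed the test. An antisense gene that starts beside its promoter, Gm26693, held 1 count over the 6 libraries.

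The promoters of the most raised and the most lowered gene are printed to show how much they differ in CpG content, from RefSeq (build GRCm38.p6), 250 bases before to 50 after the start of transcription. The Zfp811 window is chr17:32809882-32810181 on the minus strand and the Zfp709 window is chr8:71881818-71882117 on the plus strand, and capitals mark each CpG.
Zfp811: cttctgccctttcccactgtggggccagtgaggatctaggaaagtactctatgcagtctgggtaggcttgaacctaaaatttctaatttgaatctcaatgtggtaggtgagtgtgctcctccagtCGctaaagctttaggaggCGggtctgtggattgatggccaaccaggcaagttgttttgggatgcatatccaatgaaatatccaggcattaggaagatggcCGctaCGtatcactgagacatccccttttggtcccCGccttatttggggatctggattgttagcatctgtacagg
Zfp709: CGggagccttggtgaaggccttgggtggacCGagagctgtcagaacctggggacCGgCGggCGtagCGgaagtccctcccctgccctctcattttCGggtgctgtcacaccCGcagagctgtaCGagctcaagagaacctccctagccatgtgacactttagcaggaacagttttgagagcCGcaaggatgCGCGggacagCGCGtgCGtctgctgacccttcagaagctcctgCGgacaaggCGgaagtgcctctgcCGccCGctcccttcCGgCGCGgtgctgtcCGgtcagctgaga
The Zfp811 window holds 5 CpG and the Zfp709 window 23. These are a pair of genes and not a pattern of the family. Across the 243 zinc finger genes with a promoter in the RefSeq table, the median was 13 CpG for the genes that fell and 18 for those that rose. It was 16 for those that did not pass the test and 23 for the other tested protein-coding genes. Genes with the KRAB letters had a median of 11 and those without had 23. Of all 282 genes, 98 of the 153 that fell and 12 of the 41 that rose had these letters, so direction and KRAB letters are not separated here.

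The next increases were of genes without the KRAB letters, several of them transcription factors with known targets. Zfp462, a large chromatin factor of development, had 15.3, 14.9 and 12.3 CPM in LPS and 3.74, 4.08 and 3.46 CPM in None. Its log2 fold change was 1.91 ± 0.14 (adjusted p 1.5e-07), and the groups did not overlap. Zfp143, an activator of small nuclear RNA genes and of many protein-coding promoters, had 59.6, 59.2 and 69.3 CPM in LPS and 18.02, 23.5 and 24.5 CPM in None, with a log2 fold change of 1.51 ± 0.11 (adjusted p 1.77e-07). Each LPS library was well above the highest None library. Zfp523, known in humans as ZNF76 and a close relative of Zfp143, had 38.8, 39.8 and 39.1 CPM in LPS and 15.2, 16.7 and 16.5 CPM in None. Both relatives rose, Zfp523 with a log2 fold change of 1.28 ± 0.09 (adjusted p 5.79e-08).

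Zfp335, a factor needed for T cell maturation in mice, had 75.9, 73.8 and 93.0 CPM in LPS and 28.3, 32.6 and 29.0 CPM in None, a log2 fold change of 1.43 ± 0.10 (adjusted p 8.08e-08). It shares its locus with Pcif1 and an antisense gene, and Zfp143 overlaps 1600010M07Rik, so part of their reads may belong to those genes. Zfp341, whose human counterpart activates STAT3, had 6.54, 6.61 and 8.87 CPM in LPS and 3.74, 3.41 and 3.00 CPM in None (log2 fold change 1.12 ± 0.18, adjusted p 0.000108). The groups were separate for both genes. Zfp420, in which the KRAB letters were not found, rose with a log2 fold change of 1.28, and Zfp948, which has them, with 1.26.

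The genes lie in clusters, and in most of the larger clusters more genes fell than rose. Joining genes whose starts were within 500 kb gave 16 clusters of at least 4, with 134 genes, of which 83 fell (61.9%) and 11 rose (8.21%), with a median log2 fold change of -0.49. Genes of equal count were lower in 41.0% and higher in 28.4%. Of the 148 genes outside them 70 fell (47.3%) and 30 rose (20.3%), with a median of -0.24, and their equal-count genes were lower in 38.6% and higher in 31.1%. Chromosome 7 alone held 78 of the 282 genes, with 46 lower and 5 higher, where 35.1% of all genes tested were lower and 34% higher.

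The cluster on chromosome 17 at chr17:21008941-23564238 was the largest, with 20 genes from Zfp160 to Zfp213, of which 15 fell and 3 rose. Over all genes tested the shares were 35.1% lower and 34% higher. It held Zfp40, Zfp213, Zfp943, Zfp994 and Zfp995, all at log2 fold changes of -1.98 or lower. It also held Zfp51, Zfp52 and Zfp948, with log2 fold changes of 0.70, 0.72 and 1.26, which were chosen here for being its only genes that rose. Zfp52 had 30.6, 26.4 and 25.6 CPM in LPS and 15.1, 17.1 and 18.04 CPM in None, so that the groups were apart. These 3 stand near each other on 1 side of the cluster, between Zfp54 and Zfp983, with Zfp53 (-0.28) among them. Zfp51 and Zfp995 have near-identical stretches in other genes, and their values are uncertain to that extent.

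The cluster on chromosome 13, at chr13:67038596-67755228, had 15 genes, all with the KRAB letters, of which 13 fell and none rose (median log2 fold change -0.79). The other 2, Zfp712 and Zfp429, had log2 fold changes of -0.47 and -0.35. These counts are to be read against 35.1% lower and 34% higher of all genes tested. Zfp455 had 0.639, 0.726 and 0.216 CPM in LPS and 3.53, 2.07 and 2.48 CPM in None. Zfp759 had 1.49, 1.89 and 1.08 CPM in LPS and 6.35, 5.07 and 4.91 CPM in None, a log2 fold change of -1.87 ± 0.23 (adjusted p 1.18e-05). In neither gene did the groups overlap. Zfp459, the gene with the most negative log2 fold change of the cluster (-2.48 ± 0.48), averaged 0.191 CPM in LPS and 1.10 CPM in None. Its counts were 5, 1 and 2 in LPS and 21, 16 and 26 in None. It thus reached the summed count required of all members mostly through None. How far its place as the largest decrease of the cluster rests on that choice was not tested.

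A chromosome 7 cluster at chr7:29768552-30169727 held 15 genes, with 8 lower and 1 higher. Zfp14 (log2 fold change -1.71) and Zfp383 (-1.10) fell there, and Zfp420 was the gene that rose. Zfp383 had 3.98, 4.72 and 3.54 CPM in LPS and 9.01, 8.89 and 8.27 CPM in None, without overlap. The second cluster of chromosome 17, at chr17:32765496-33631779, had 11 genes, with 6 lower, and Zfp811 as the single gene that rose. Zfp763 and Zfp101 were its largest decreases, at -1.20 and -1.07. Another chromosome 7 cluster, at chr7:24081924-24515682, had 9 genes, of which 7 fell (median -0.98). A further one, at chr7:127233061-127885996, had 10 genes with 4 lower, 0 higher and 6 that did not pass the test. Its count called lower was near the 35.1% of all genes tested, but none rose, where 34% of all genes tested did.

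**Figure D4:**
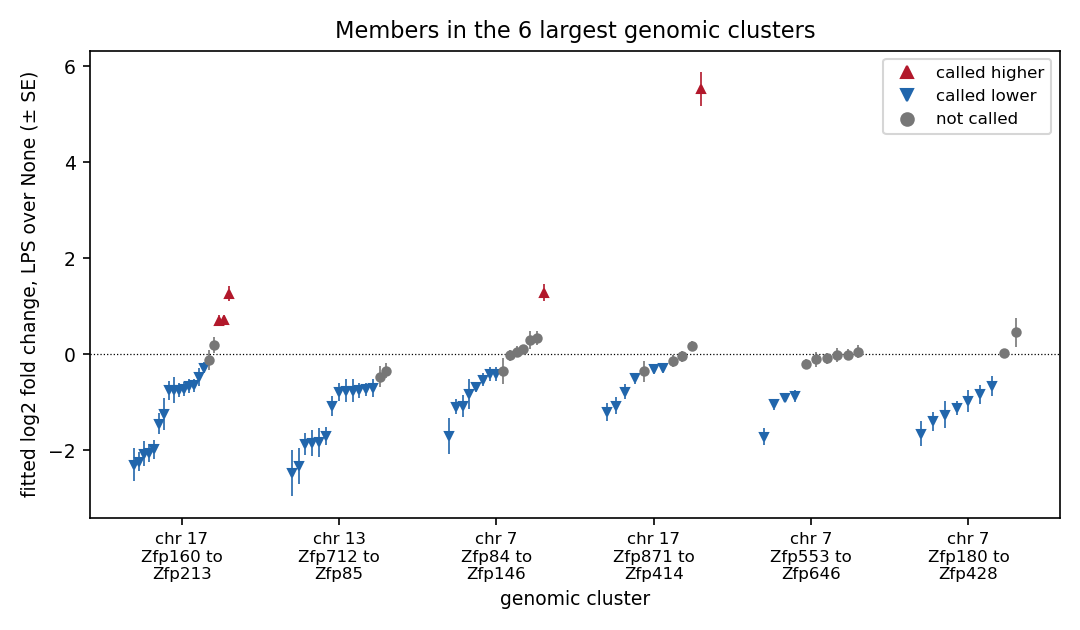
Fitted log2 fold change of LPS over None with its SE (vertical axis) of each gene in the 6 largest genomic clusters (horizontal axis, named by chromosome and first and last gene), ordered by value within a cluster; triangles are genes that passed the test and circles those that did not. All genes of the chromosome 13 cluster are below 0, and Zfp811 at 5.52 stands alone above the second chromosome 17 cluster.

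Of 5 members listed for roles in silencing retroviral or imprinted DNA 3 fell and 1 rose, too few to read against the 35.1% and 34% of all genes tested. Zfp932, a repressor of endogenous retroviruses in embryonic stem cells, had 4.69, 4.21 and 4.401 CPM in LPS and 13.6, 14.1 and 12.4 CPM in None, a log2 fold change of -1.59 ± 0.13 (adjusted p 3.38e-07). The counts were apart, but its mean TPM was 10.7 in LPS and 13.6 in None, a smaller difference, and Gm15446 matches it at 96.9% over 1371 bases. Zfp638, which silences unintegrated retroviral DNA, had 44.0, 47.3 and 33.6 CPM in LPS and 89.2, 84.1 and 83.2 CPM in None (log2 fold change -1.04 ± 0.11, adjusted p 2.61e-06). Each LPS library was below each None library. Zfp568, a repressor of a placental Igf2 promoter, fell with a log2 fold change of -0.42 ± 0.14 (adjusted p 0.0188), a call that was lost without LPS replicate 1 (adjusted p 0.066) or None replicate 2 (adjusted p 0.094) and on both TPM scales (adjusted p 0.182 and 0.196).

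Zfp809, which silences retroviral DNA in embryonic cells, had 31.6, 34.3 and 30.3 CPM in LPS and 21.3, 24.1 and 21.8 CPM in None, and rose with a log2 fold change of 0.52 ± 0.09 (adjusted p 0.000294). Zfp445, which keeps imprinted regions methylated, was among the more abundant KRAB genes, with 100.5, 100.6 and 98.1 CPM in LPS and 97.8, 95.6 and 92.4 CPM in None. Its log2 fold change of 0.07 ± 0.06 did not pass the test (adjusted p 0.381), but by library totals it was -0.19 and passed as lower (adjusted p 0.0193).

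Among 8 genes that act on RNA, ribosomes or mitosis 3 rose (37.5%) and 2 fell (25%), near the 34% and 35.1% of all genes tested. Zfp593, a maturation factor of the large ribosomal subunit, had 20.4, 21.5 and 23.0 CPM in LPS and 11.4, 10.6 and 11.4 CPM in None, a log2 fold change of 0.96 ± 0.10 (adjusted p 2.78e-06). Its LPS libraries stood well above its None libraries. Zfp598, the ubiquitin ligase that marks collided ribosomes, rose with a log2 fold change of 0.42 ± 0.08 (adjusted p 0.000675), with means of 67.9 CPM in LPS and 50.9 CPM in None. That call was lost by library totals (log2 fold change 0.16, adjusted p 0.0971) and on the TPM scales (0.18 and 0.19, adjusted p 0.0876 and 0.0851). Zfp326, which couples splicing to elongation, fell with -0.37 ± 0.11 (adjusted p 0.00713). Zfp346, a protein that binds double-stranded RNA, and Zfp622, another factor of the large subunit, had log2 fold changes of 0.32 (adjusted p 0.0325) and -0.25 (adjusted p 0.0276). The call of Zfp346 was lost without LPS replicate 3 or any 1 None library (adjusted p 0.069 to 0.114), by library totals (log2 fold change 0.058, adjusted p 0.678) and on both TPM scales (0.17 and 0.18, adjusted p 0.221 and 0.220). That of Zfp622 was lost without LPS replicate 1 or 2 or None replicate 2 or 3 (adjusted p 0.063 to 0.110).

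Among 18 genes listed for roles in transcription or signalling 8 rose (44.4%) and 5 fell (27.8%), where 34% and 35.1% of all genes tested did. Their median summed count, 3812.5, lay in the highest count bin. There 42.2% of the other protein-coding genes were higher and 31.0% lower, near the shares of the list. Besides Zfp462, Zfp143 and Zfp335 the clearest increases were of Zfp131, a BTB zinc finger factor, and Zfp263, a SCAN and KRAB factor in which the letters were not found. Zfp131 had 48.5, 50.7 and 45.2 CPM in LPS and 29.9, 33.4 and 28.2 CPM in None (log2 fold change 0.66 ± 0.09, adjusted p 3.12e-05). Zfp263 had a log2 fold change of 0.44 ± 0.07 (adjusted p 9.02e-05), and the groups of both genes were apart. Zfp91, a ubiquitin ligase linked to noncanonical NF-kappaB signalling, had 166, 157 and 159 CPM in LPS and 139, 134 and 136 CPM in None. It rose by 0.24 ± 0.07 (adjusted p 0.00599) on the log2 scale, but by library totals its value was -0.02 (adjusted p 0.799), and on both TPM scales 0.02 (adjusted p 0.838 and 0.837). Zfp292 likewise had 0.24 ± 0.08 (adjusted p 0.0204) and -0.02 by library totals (adjusted p 0.876), and its call was lost on both TPM scales (adjusted p 0.907 and 0.911) and without LPS replicate 1 or None replicate 2 or 3 (adjusted p 0.063 to 0.093). Zfp516, a brown fat factor at 2.72 ± 1.04 CPM in LPS and 1.502 ± 0.255 CPM in None (SD, n = 3 each), had overlapping groups. Its log2 fold change was 0.85 ± 0.29 (adjusted p 0.0217), and the call was lost without LPS replicate 2 or 3 or None replicate 1 or 3 (adjusted p 0.054 to 0.124), by library totals (adjusted p 0.098) and on both TPM scales (adjusted p 0.264 and 0.245).

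Several of the decreases touch partners of chromatin proteins. Zfp644, a partner of the histone H3 lysine 9 methyltransferases Ehmt1 and Ehmt2, had 14.3, 15.8 and 9.67 CPM in LPS and 23.7, 23.7 and 27.3 CPM in None, a log2 fold change of -0.91 ± 0.15 (adjusted p 0.000133). Ehmt1 also fell (log2 fold change -0.46, adjusted p 9.98e-05), while Ehmt2 had 0.16 and did not pass the test (adjusted p 0.0982). Zfp410, known as an activator of the remodeller gene Chd4, had 17.5, 19.8 and 15.01 CPM in LPS and 27.9, 27.97 and 27.2 CPM in None. It fell with a log2 fold change of -0.67 ± 0.11 (adjusted p 0.000109), and Chd4 itself had -0.17 (adjusted p 0.0388). Ehmt1, Ehmt2 and Chd4 are named for these links, after their values were seen. Whether their values depend on Zfp644 or Zfp410 was not tested. Zfp384, a promoter-binding factor, fell with -0.50 ± 0.09, and the Zmynd8 partner Zfp687 with -0.31 ± 0.08 (adjusted p 0.000195 and 0.00318). Zfp592, another Zmynd8 partner, had -0.23 ± 0.09 (adjusted p 0.0364), and its call was lost without any 1 library other than LPS replicate 3 (adjusted p 0.054 to 0.133), and with all 6 libraries under RLE size factors (adjusted p 0.0543) and DESeq2 (adjusted p 0.0787). Zfp217, Zfp110, Zfp219, Zfp148 and Zfp281 had log2 fold changes from 0.03 to 0.18 and did not pass the test. By library totals that of Zfp217 was -0.23 and passed as lower (adjusted p 0.0195), and Zfp281 passed the test without LPS replicate 3 (log2 fold change 0.32, adjusted p 0.016).

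Of the 6 most abundant members 2 fell and 1 rose, against 35.1% and 34% of all genes tested. By length-scaled level the order was Zfp207 (84.9 TPM over all libraries), Zfp106 (57.8), Zfp330 (43.3), Zfp710 (40.8), Zfp511 (36.4) and Zfp414 (36.3), the last pair nearly equal. Zfp207, which binds Bub3 in mitosis, had 156, 138 and 136 CPM in LPS and 149, 144 and 152 CPM in None, with overlapping groups and an adjusted p of 0.552. It passed as lower by library totals (log2 fold change -0.31, adjusted p 0.0018) and on both TPM scales (-0.22, adjusted p 0.033). Zfp106, an RNA-binding protein, had 312, 320.1 and 309 CPM in LPS and 295, 295 and 293 CPM in None, and its log2 fold change of 0.09 did not pass the test (adjusted p 0.245). By library totals the values of Zfp106 and Zfp511 turned negative, to -0.17 and -0.23, and passed the test as lower (adjusted p 0.0399 and 0.0332). Of the 6 Zfp710 had the largest change. It had 115, 121 and 119 CPM in LPS and 203, 213 and 199 CPM in None, a log2 fold change of -0.80 ± 0.07 (adjusted p 5.20e-07). Zfp330 rose with a log2 fold change of 0.35 ± 0.09 (adjusted p 0.00384), but by library totals it had 0.09 (adjusted p 0.425) and on both TPM scales adjusted p was 0.396. Zfp414 had -0.30 ± 0.10 (adjusted p 0.0228), and its call was lost without LPS replicate 1 or 2 or None replicate 1 or 2 (adjusted p 0.064 to 0.088).

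The genes that carry out KRAB repression were read from a list of their own. Of its 30 corepressor and heterochromatin genes 17 fell, 7 rose and 6 did not pass the test (median log2 fold change -0.25), to be read against 35.1% lower and 34% higher of all genes tested. By library totals 21 of the 30 fell and 2 rose, under a scaling that put the median of all genes tested at -0.29. Trim28, the scaffold that KRAB domains bind, had 173, 178 and 186 CPM in LPS and 275, 273 and 245 CPM in None. Its groups did not overlap, and its log2 fold change was -0.56 ± 0.07 (adjusted p 2.46e-05). Setdb1, the methyltransferase of the same complex, had 65.4, 68.6 and 62.0 CPM in LPS and 88.1, 87.3 and 92.0 CPM in None, a log2 fold change of -0.45 ± 0.07 (adjusted p 9.23e-05).

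Larger decreases were found for the de novo DNA methyltransferases and for heterochromatin protein 1 alpha. Dnmt3b had 0.710, 1.16 and 0.433 CPM in LPS and 3.53, 3.05 and 2.84 CPM in None (log2 fold change -2.02 ± 0.30, adjusted p 6.02e-05), and Dnmt3a had -0.87 ± 0.07 (adjusted p 4.20e-07). Cbx5, the gene of heterochromatin protein 1 alpha, had 67.1, 95.9 and 83.4 CPM in LPS and 169, 169 and 164 CPM in None, with a log2 fold change of -1.03 ± 0.11 (adjusted p 2.81e-06). Every LPS library was below every None library in all of these. Daxx, a histone H3.3 chaperone, was the largest increase of the list, with 44.1, 49.6 and 53.1 CPM in LPS and 27.0, 25.3 and 26.4 CPM in None (log2 fold change 0.90 ± 0.09, adjusted p 2.07e-06).

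**Figure D5:**
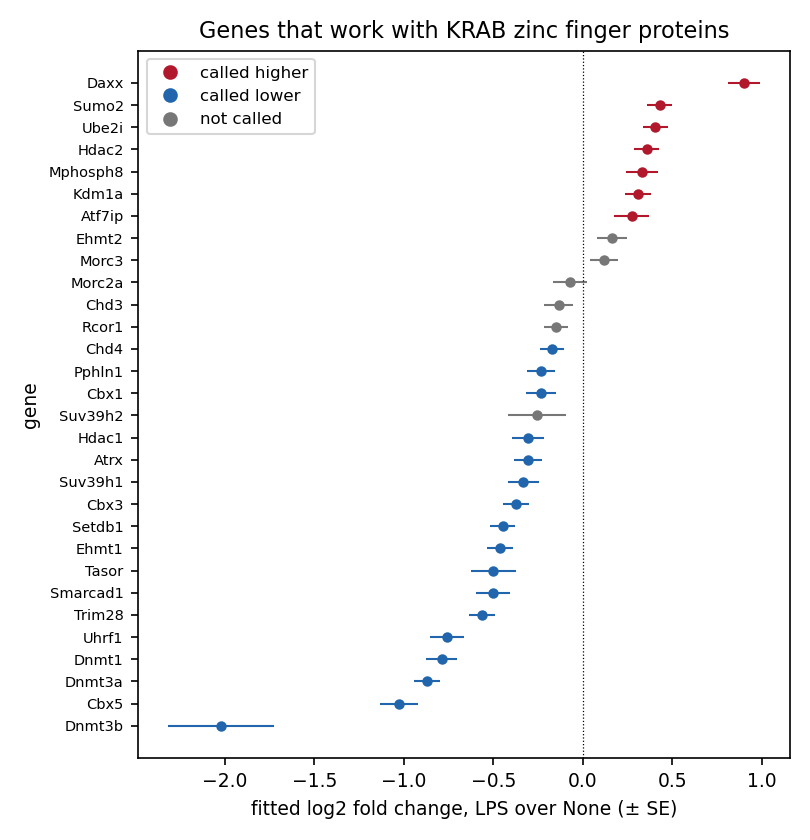
Fitted log2 fold change of LPS over None with its SE (horizontal axis) of 30 genes that work with KRAB zinc finger proteins (vertical axis), coloured by whether the test called them higher, lower or neither. Dnmt3b at -2.02 and Cbx5 at -1.03 are at the low end, Daxx at 0.90 at the high end, and 17 of the 30 passed as lower.

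A DNA element shared by many of these promoters is the core of the Zfp143 binding site, ACTACA followed by any 2 bases and TCC. Searched on both strands of the RefSeq windows, it was in 46 of 243 promoters of the zinc finger genes (18.9%), in 5.08% of those of other tested protein-coding genes and in 2.27% of all RefSeq promoters of that length. Of KRAB genes 24.7% held it, and of the genes without KRAB letters 10.3%. Windows of 35 bases around it are shown for 6 genes that fell, because the match extends beyond the core, with the core in capitals.
Zfp455 (chr13:67194439-67194473, minus strand): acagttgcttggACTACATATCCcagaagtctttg
Zfp759 (chr13:67128165-67128199, minus strand): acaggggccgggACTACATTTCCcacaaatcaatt
Zfp458 (chr13:67269149-67269183, plus strand): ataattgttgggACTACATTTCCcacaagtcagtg
Zfp953 (chr13:67360624-67360658, plus strand): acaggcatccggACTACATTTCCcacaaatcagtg
Zfp65 (chr13:67729168-67729202, plus strand): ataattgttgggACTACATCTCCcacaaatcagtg
Zfp14 (chr7:30051388-30051422, minus strand): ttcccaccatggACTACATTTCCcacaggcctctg
The first 5 are from the chromosome 13 cluster, whose genes share ancestry, so their likeness is not independent. Zfp458, Zfp953 and Zfp65, chosen after their values were seen, had log2 fold changes of -1.85, -1.84 and -1.70.

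Zfp143 itself rose, as given above, and the genes with its core were compared with those without. Of the 46 with the core 25 fell and 4 rose (median log2 fold change -0.60), and of the 197 with a promoter and no core 108 fell and 27 rose (-0.33). That is 54.3% and 54.8% called lower. Their equal-count genes were called lower in 41.1% and 39.5% and higher in 28.5% and 30.1%. The median summed count was 586 for the genes with the core and 1024 for those without. A match is a stretch of letters and says nothing of binding in these cells. Of 10 other motifs searched, the GC box GGGCGG was in 48.6% of the zinc finger promoters and in 70.3% of those of other tested protein-coding genes, and the E-box CACGTG in 6.996% and 12.2%. The NF-kappaB type motif, GGGA, any 2 bases and TTCC, was in 2.88% and 1.70%, and the interferon-response type, GAAA, any 2 bases and GAAA, in 2.47% and 3.81%. The ETS type motif CCGGAAG was in 23.0% and 22.1%, the E2F type TTTCCCGC in 2.88% and 2.62%, the TATA box TATAAA in 7.41% and 8.25%, and the YY1 type ATGGCGG in 12.3% and 10.2%. The cAMP-response type TGACGTCA was in 4.12% and 3.83%, and the NRF1 type, GCGCA, any base and GCGC, in 10.7% and 12.7%.

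Copies limit what single values mean. For 20 of the 282 genes another gene matched at 95% or more over at least 200 bases of coding sequence, so that their reads may be divided between copies. Of these 14 fell (70%) and 2 rose (10%), with a median log2 fold change of -1.17. Of the 262 others 139 fell (53.1%) and 39 rose (14.9%), with a median of -0.32. Of all genes tested 35.1% were lower and 34% higher, and the equal-count genes of the 262 were lower in 39.6% and higher in 30.0%. Zfp966 and Zfp968 match at 100% over 1455 bases. Zfp966 had 2.49, 2.47 and 2.02 CPM in LPS and 8.52, 6.57 and 6.93 CPM in None, while Zfp968 had 1.07, 1.67 and 1.44 CPM in LPS and 1.90, 2.79 and 1.40 CPM in None. The first passed the test and the other did not (adjusted p 0.131), and how RSEM divided their shared reads was not tested. Another set of 20 genes, drawn from all 282, overlap another gene with counts.

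At the threshold of 60 summed counts the genes just inside were Zfp976 (61.68), Zfp808 (65.71) and Zfp970 (69.11), and those just outside were Zfp786 (58), Zfp985 (52) and Zfp558 (51). The log2 fold changes inside were 0.21, -1.81 and -1.92, and outside -0.92 for Zfp786 and -2.15 for Zfp558, while Zfp985 was not tested. Zfp808 and Zfp970 reached the sum mostly through None, with means of 0.94 and 1.02 CPM there against 0.26 CPM in LPS for both. Zfp808 also matches Zfp934 at 95.9% over 1422 bases, and Zfp970 matches Zfp973 at 96.4% over 897 bases. Below the threshold stood 84 numbered genes, and of the 367 symbols 46 had 0 counts in all 6 libraries. Zfp36, which was left out, codes for tristetraprolin, an RNA-binding protein with fingers of another type that destabilises cytokine mRNA. It had 455, 374 and 569 CPM in LPS and 144, 196 and 174 CPM in None, a log2 fold change of 1.44 ± 0.14 (adjusted p 2.08e-06).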

How the data were processed

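Total RNA of RAW-Blue cells was read as paired ends of 100 bases, and SOAPnuke removed adapter and low-quality reads, per the labels' protocols. STAR 2.7.10a, RSEM 1.3.1 and the build GRCm38 are named per the submitters' processing notes. The deposited expected counts, estimates that divide reads between genes sharing sequence, were rounded to whole numbers. The deposited TPM values, the authors' scaling per transcript length, were used for levels and as an alternative. No source used here states whether libraries kept the strand, so overlapping genes cannot be told apart.

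Of the library columns 6 matched the LPS and None labels. The other 12 matched no label and were not used, so LPS-PjELNs was not analysed here. Depth was 14650825 to 17665201 counts per library, and 530 genes without a symbol, with 0.0231% to 0.0318% of them, were kept under their identifiers. The biological coefficient of variation was 8.32%, and each pair of replicates differed by more than sampling noise.

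Genes were kept by filterByExpr (count minimum 10, total 15) of edgeR 4.0.16 in R 4.3.3, which left 11916, all 282 members among them, and were tested two-sided by glmQLFTest on group after TMM scaling, with Benjamini-Hochberg adjustment over all tested and a threshold of 0.05. SEs are the fitted log2 fold change over the root of its F. DESeq2 1.42.0, limma 3.58.1 and other scalings and filters were alternatives. The steps were tested on simulated data. The members and gene lists were chosen with earlier results of these data known.

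Start positions in the deposited tables count from 0 and were raised by 1 to match GENCODE M21. Each gene's longest coding transcript of that annotation was translated and searched for fingers (cysteine, 2 to 4 residues, cysteine, 12 residues, histidine, 3 to 5 residues, histidine) and for letters typical of the KRAB A box; blastn 2.17.0 found copies. Promoters from RefSeq (GRCm38.p6) matched 243 members. Named genes are the 8 largest increases and 12 largest decreases (adjusted p under 0.05, no overlap, mean of at least 1 CPM), the 6 highest by TPM, members of role lists, genes beside the threshold of 60, corepressors with large changes and up to 3 per large cluster; others are named as examples after their values were seen.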

Additional observations from a re-analysis of the deposited data

How the results depend on the processing

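The number of members called lower stayed within 1.5 times of 153 under all alternatives (124 to 191), and the median log2 fold change of members stayed below 0 and below that of equal-count genes throughout. The number called higher fell to 21 of 41 by library totals and by limma on log2(TPM + 1) and log2(TPM + 0.1), and the corepressor genes called higher to 2, 3 and 3 of 7. Those settings shift the median of all genes to -0.29, -0.19 and -0.22 (TMM: -0.03). The members' median was -0.60 by library totals and -0.48 on log2(TPM + 0.1). That of equal-count genes was -0.17 and moved to -0.15 with RLE size factors and with DESeq2, -0.43 by library totals, -0.18 with no filter, -0.26 and -0.35 on log2(TPM + 1) and log2(TPM + 0.1), -0.13 for sums of at least 300, and -0.16 without members with a near-identical copy, an alternative added after seeing the data. The gap between the members' median and the equal-count genes' mean of bin medians, -0.18, was -0.11 on log2(TPM + 1). The cause of these moves was not tested. Leaving out 1 library gave -0.18 to -0.15 for the median of equal-count genes. Without LPS replicate 1, 2 or 3 the median of the KRAB genes was -0.60, -0.66 or -0.50. Over the LPS libraries the SD was 0.055 for the members' median, 0.0096 for that of equal-count genes and 0.063 for the gap. By library totals Zfp91 (-0.0191), Zfp511 (-0.23), Zfp106 (-0.17), Zfp292 (-0.0154), Zfp445 (-0.19) and Zfp217 (-0.23) changed sign, each with a call under TMM or library totals. Zfp318, Zfp148, Zfp281, Zfp219, Zfp110 and Zfp976 also turned negative, but passed the test under neither. Over the named genes' other settings 916 values kept their side of the threshold, 46 lost the call and 6 gained it. The 6 sign changes with a call are counted apart from these. With the replicate number as a block 41 members were called higher and 151 lower, but the numbers do not pair the samples (correlation of deviations between LPS and None 0.0825, -0.0198 and 0.00954), and no paired reading is made.

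Depth limits the members just above 60 summed counts. Samples of groups of 3 were not examined for outlying values.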
